A study of Rattus norvegicus with 10 samples.

Results

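Neural stem and progenitor regulators were followed in cultured rat cortical cells treated with inhibitors of histone deacetylases, enzymes that take acetyl groups off histone tails and mostly repress transcription. The set comprised 9 genes given by name: Nes, Sox2, Pax6, Eomes, Neurog1, Neurog2, Hes1, Hes2 and Hes5. Of these, 5 could be paired with a row among the 32883 Ensembl genes of the deposited table, namely Nes (ENSRNOG00000018681), Neurog2 (ENSRNOG00000010972), Eomes (ENSRNOG00000042140), Neurog1 (ENSRNOG00000022405) and Hes2 (ENSRNOG00000010490). Sox2, Pax6, Hes1 and Hes5 were not analysed here. Symbols were paired with identifiers only through the readable rows of the study's supplementary gene lists, which hold upregulated genes. All 5 genes stand in the TSA list, and Eomes and Neurog1 stand in the NaB list as well, so that a rise in those comparisons was a condition for being paired. Their changes there are therefore described without a test. The NaB comparisons of Nes, Neurog2 and Hes2 were not used in the pairing.

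The 10 libraries were made from primary cortical cultures of newborn Wistar rats, and the drug was added on day 14 in vitro and not washed out. Trichostatin A (TSA) was given at 100 nM for 19 h to 3 cultures with 3 control cultures, and sodium butyrate (NaB) for 24 h to 2 cultures with 2 controls of their own. The NaB dose is 5 mM in the study's text and 5 µM in the sample labels. The labels name no altered gene in any group. The NaB libraries came from a separate project, so that drug, incubation time and project cannot be told apart. The libraries held 26070908 to 27649249 reads each, and a value below is a normalized count, in which the reads of a gene are divided by the size factor of its library. Values are compared within a gene only, since they are not scaled to gene length. The labels call the samples primary neuron cultures, and none of the 9 neuron, 7 astrocyte and 9 oligodendrocyte lineage markers fixed for this purpose could be paired, so that this label was not checked here. In such bulk samples, more cells of a type and more RNA per cell cannot be told apart.

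In the embryonic cortex, neural stem cells line the ventricle as radial glia and divide either to renew themselves or to give rise to neurons, often by way of intermediate progenitors. Notch signalling between neighbouring cells switches on repressors of the Hes family, which hold back the proneural basic helix-loop-helix (bHLH) factors. Where these factors win out, the cell leaves the stem state. Neurog1 and Neurog2 drive the formation of glutamatergic neurons, and the T-box factor Eomes (Tbr2) marks the intermediate progenitors that follow. Nes encodes nestin, an intermediate filament protein of neural stem cells that is also made by reactive astrocytes and by growing blood vessels.

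The promoters of 3 genes that were low in the control libraries are shown, because they differ in base composition and in the TATA core. Each line gives the 250 bases before the gene's start as in RefSeq on the build GRCr8, 5′ to 3′ on the gene's own strand, with a match to TATAAN in capitals. The deposited values rest on an earlier build, Rnor_6.0, whose coordinates were not used here.
Neurog2, chr2:218766955-218767204 (+): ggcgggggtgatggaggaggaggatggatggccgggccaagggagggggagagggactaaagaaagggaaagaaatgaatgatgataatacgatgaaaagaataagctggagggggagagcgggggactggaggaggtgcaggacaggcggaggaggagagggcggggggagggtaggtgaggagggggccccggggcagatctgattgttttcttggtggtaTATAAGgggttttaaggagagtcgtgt
Eomes, chr8:127058965-127059214 (+): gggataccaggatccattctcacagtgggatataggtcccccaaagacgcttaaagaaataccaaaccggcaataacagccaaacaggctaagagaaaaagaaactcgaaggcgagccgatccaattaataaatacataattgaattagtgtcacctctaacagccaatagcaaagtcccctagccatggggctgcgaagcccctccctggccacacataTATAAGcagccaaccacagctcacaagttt
Neurog1, chr17:8367846-8368095 (+): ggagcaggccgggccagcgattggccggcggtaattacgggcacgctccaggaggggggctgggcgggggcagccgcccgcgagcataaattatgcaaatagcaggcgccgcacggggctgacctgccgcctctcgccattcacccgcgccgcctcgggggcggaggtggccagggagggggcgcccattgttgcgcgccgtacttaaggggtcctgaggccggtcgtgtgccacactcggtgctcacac
Neurog2 and Eomes hold TATAAN, searched on the gene's strand, at positions -27 to -22 and -30 to -25 relative to the start, whereas Neurog1, Nes and Hes2 hold none. These letters occur in 16.7% of 33469 RefSeq promoters of that length. The Neurog1 promoter had 70.8% G and C bases and 27 CpG dinucleotides, more CpGs than 92.3% of all promoters, against 46.4% and 6 for Eomes and 57.6% and 8 for Neurog2. Nes had 60.4% and 14, Hes2 had 64.4% and 12, and the median over all promoters was 51.2% and 5. The E-box CANNTG, the form of motif that bHLH factors bind, was searched on both strands and was found in Hes2 alone among the 5, at -193 to -188, while 65.5% of all promoters hold it. The N-box CACNAG, bound by Hes repressors, was found on either strand in Eomes at -9 to -4 and in Hes2 at -37 to -32, against 37.2% of all promoters. The sequence GTGGGAA, the core bound by the Notch effector RBPJ, was found in none of the 5 and in 5.27% of all promoters. No match overlapped another. These matches describe the letters of the windows, and binding was not measured.

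The study states that each control and treated pair shared a plate, but the labels name no plate. The pairs were taken from replicate numbers (TSA) and consecutive library names (NaB). Across the 5 genes, treated cultures held more transcript than the control on the same plate in all 5 pairs of cultures. The pairing had required a rise with TSA of all 5 genes and with NaB of Eomes and Neurog1, so that nothing is read from this count beside the 35.2% of all 15717 genes tested that were higher in the treated culture of all 5 pairs. With TSA the fold of the means was 2.08 for Nes, 2.20 for Neurog2 and 18.2 for Eomes, and with NaB it was 1.45, 2.63 and 13.2. Neurog1 and Hes2 gave at most 1 read in any control.

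**Figure D1:**
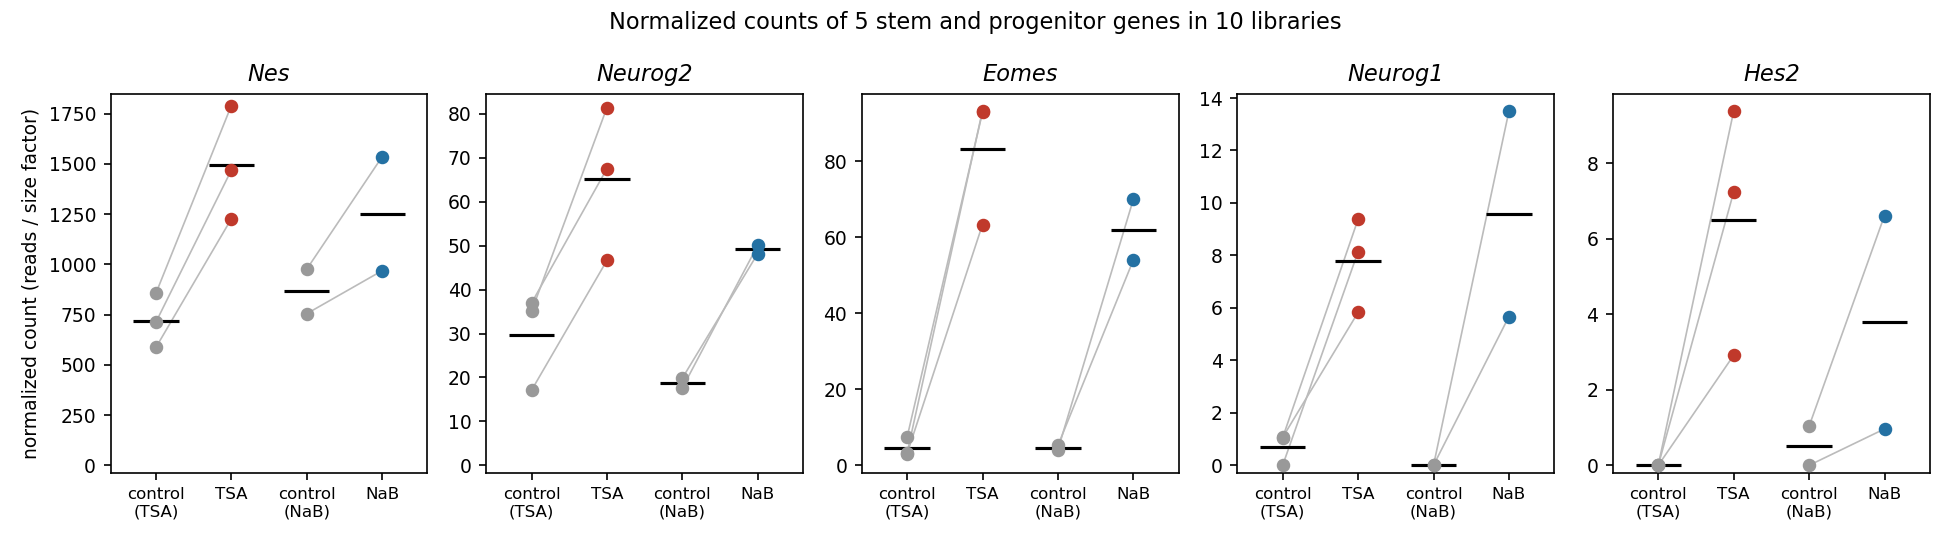
Normalized counts (reads divided by the size factor, linear axes from 0) of Nes, Neurog2, Eomes, Neurog1 and Hes2 in each of the 10 libraries, with grey points for controls, red for TSA and blue for NaB. Bars are group means and lines join cultures of the same plate; treated points lie above the controls of their experiment except for Nes and Hes2 with NaB, where the ranges overlap.

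Nes was read in every library. Its control libraries for TSA gave 587, 856 and 712 normalized counts (718 ± 135, SD, n = 3), and the TSA libraries gave 1227, 1790.2 and 1469 (1495 ± 283, SD, n = 3). Every TSA library lay above every control, which held for 33.1% of all genes tested. The fold of the means was 2.08, and within the plates it was 2.09, 2.09 and 2.06, so that the change varied far less between plates than the level did, which spanned 1.46-fold among these controls. The log2 fold change was 1.06 with a standard error of 0.20 (limma).

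With NaB, Nes was 1.45-fold the controls by the ratio of means. The controls gave 755 and 976 normalized counts and the NaB libraries 969 and 1536. The higher control exceeded the lower NaB library, so that the groups overlapped. The plate folds were 1.28 and 1.57, and the log2 fold change was 0.51 with a standard error of 0.25, which did not pass the test when the plates were not taken into account (limma, Benjamini-Hochberg adjusted p = 0.109, higher on 2 of 2 plates). With the plate as a replicate block, the same change had a standard error of 0.098 and an adjusted p of 0.00114 (limma), and 22.7% of all genes were called upregulated in that fit. Over all alternatives, the value ran from 0.17 to 0.84 and the adjusted p from 0.00114 to 0.623. Among the 995 tested genes that were paired through the TSA list alone, as Nes was, 78.3% were called upregulated with NaB, and 7.94% had a lower log2 fold change with NaB than Nes.

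The difference between the changes of Nes, NaB minus TSA, was -0.55 on the log2 scale with a standard error of 0.32, or of 0.13 with the replicate block. With 1 library left out it ran from -0.88 (without the second NaB library) to -0.22 (without the first). It is given without a test, since the TSA change that entered it had served in the pairing, and 74.8% of the 995 genes paired in the same way had a smaller change with NaB than with TSA, so that the negative sign of Nes was shared by most of them.

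**Figure D2:**
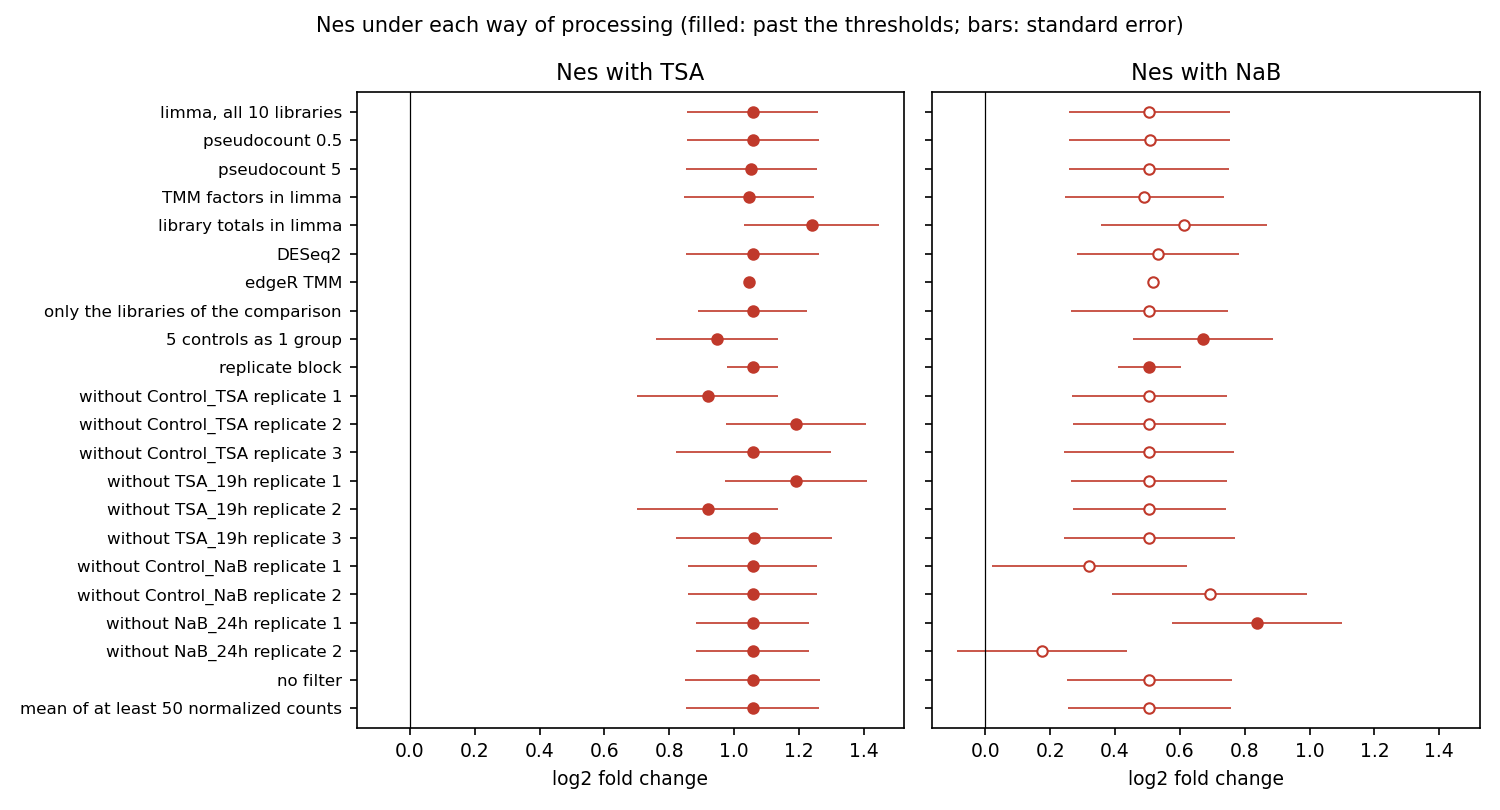
Log2 fold change of Nes with TSA (left) and with NaB (right) under each way of processing, with bars for the standard error where the tool gives one and filled points past both thresholds (adjusted p below 0.05, absolute log2 fold change of at least 0.5). With TSA every point is filled, from which nothing is read, since that rise had served in the pairing. With NaB the values run from 0.17 to 0.84 and 3 points are filled (5 controls as 1 group, the replicate block, and without NaB replicate 1).

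Of the proneural factors, Neurog2 was read in every library. The controls for TSA gave 36.9, 35.0 and 17.1 normalized counts (29.7 ± 11.0, SD, n = 3), and the TSA libraries gave 67.5, 81.4 and 46.6 (65.2 ± 17.5, SD, n = 3). The third control and the third TSA library, which shared a plate, were the lowest of their groups, and the groups did not overlap. The fold of the means was 2.20, with 1.83, 2.32 and 2.73 on the plates, and the log2 fold change was 1.15 with a standard error of 0.32.

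With NaB, Neurog2 rose from 17.6 and 19.8 normalized counts in the controls to 50.1 and 48.2. The groups did not overlap, as for 40.2% of all genes tested, and the 2 libraries of each group lay close together. The plate folds were 2.85 and 2.43, and the log2 fold change of 1.35, with a standard error of 0.39, passed the test (limma, adjusted p = 0.0133, higher on 2 of 2 plates). This call was lost without the first NaB control (adjusted p = 0.0599), without the first NaB library (0.0604) and without the second NaB library (0.0523), fits in which the remaining library of the group is assumed to vary like the other groups. With the replicate block the adjusted p was 0.00154. The difference between the changes, NaB minus TSA, was 0.20 with a standard error of 0.50 and is given without a test, since the TSA change had served in the pairing. Its direction was not stable: it ran from -0.019 to 0.54 with 1 library left out and was -0.36 with the 5 controls as 1 group.

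Neurog1, the paralog of Neurog2, was near the limit of detection in controls. Its reads numbered 1, 0 and 1 in the controls for TSA and 10, 9 and 6 with TSA. In the NaB experiment they numbered 0 and 0 in the controls and 6 and 14 with NaB. No treated library fell to the level of a control. The ratio with TSA was 11.2, with an exact 95% counting interval from 2.78 to 97.2, and with NaB the level was at least 3.07-fold higher when each control was set at a floor of 3 reads. Such intervals and floors cover counting error only. Nothing is read from those of Neurog1, since its rise with both drugs had served in its pairing. Neurog1 and Hes2 lay below the filter on low counts, and a test on Hes2 below comes from a fit without it.

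Eomes had the largest fold of the 3 genes given as a ratio of means. The controls held only 7, 3 and 3 reads for TSA and 4 and 5 for NaB. The size of its folds, given without a counting interval, is uncertain to that extent. Its controls for TSA gave 7.38, 3.09 and 3.20 normalized counts (4.56 ± 2.45, SD, n = 3), and the TSA libraries gave 92.8, 63.3 and 93.3 (83.1 ± 17.2, SD, n = 3). In the NaB experiment the controls gave 4.14 and 5.22 and the treated libraries 69.9 and 54.0. The lowest treated library of all thus lay far above the highest control. The folds of the means were 18.2 with TSA and 13.2 with NaB, and the log2 fold changes were 3.98 (standard error 0.34) and 3.47 (standard error 0.41). On the plates the fold ran from 12.6 to 29.1 with TSA and was 16.9 and 10.3 with NaB. The difference between the changes, NaB minus TSA, was -0.52 with a standard error of 0.53 and is given without a test, since the pairing used both. It ran from -0.86 (without the first TSA control) to -0.33 with 1 library left out.

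Hes2 was the only paired member of the Hes family, whose best known members repress proneural genes. It had 0 reads in all 3 controls for TSA and 10, 8 and 3 reads with TSA, at least 2.07-fold higher against the floor of 3 reads per library. With NaB it had 7 and 1 reads against 1 and 0 in the controls. The lower NaB library equalled the higher control in reads, so that the NaB groups overlapped. The ratio was 7.34 with an exact counting interval from 0.985 to 326, and the log2 fold change of 1.44, with a standard error of 0.68, did not pass the test without a filter (limma, adjusted p = 0.140, and by DESeq2 0.278 and edgeR 0.210). In that fit 14.9% of genes were called upregulated with NaB and 15.6% with TSA. The adjusted p was 0.0602 with the replicate block, 0.0283 with the 5 controls as 1 group and 0.0393 without the second NaB library, whereas without the first NaB library the value was 0.46 (adjusted p = 0.678) and without the second NaB control 0.93 (adjusted p = 0.501). With 1 library left out the value thus ran from 0.46 to 2.42.

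**Figure D3:**
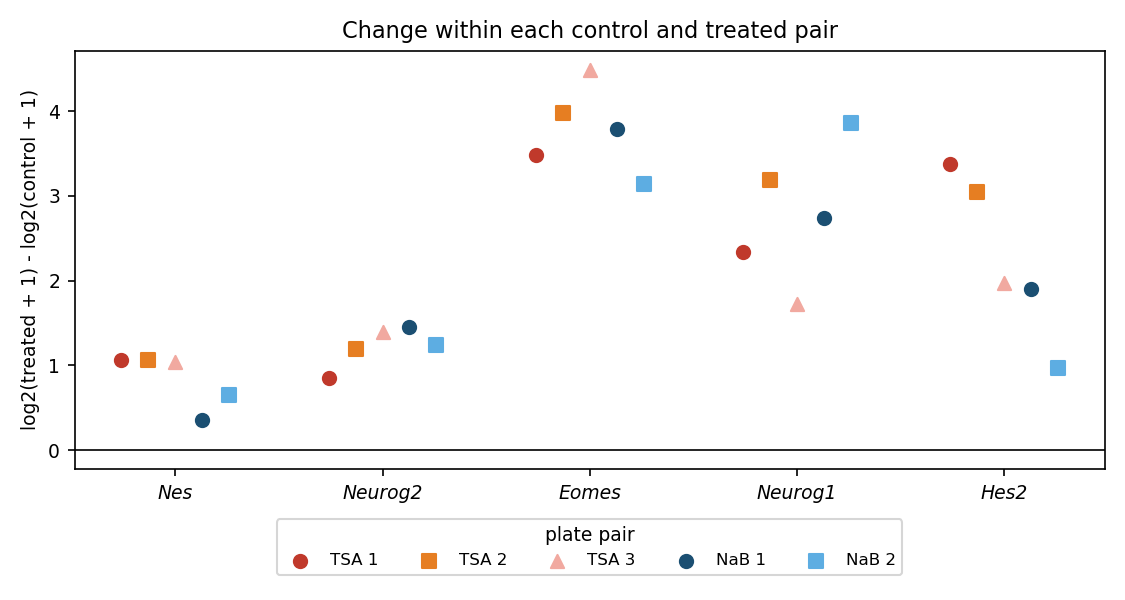
Difference of log2(normalized count + 1) between the treated and the control culture of each plate, for 3 TSA and 2 NaB plates. All points lie above 0; the TSA points of Nes lie between 1.04 and 1.06, and its NaB points at 0.36 and 0.65 are the lowest of the plot.

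Of the 5 genes, 3 passed the filter on low counts and entered the test across all genes, namely Nes, Neurog2 and Eomes. With TSA all 3 were past both thresholds, beside 22.5% of all tested genes that were called upregulated, and nothing is read from this count because the pairing used the same comparison. With NaB, Neurog2 and Eomes were past both thresholds, beside 21.2% of all tested genes, and Eomes had been paired through this comparison. Neurog2 had been paired through TSA alone, and 78.3% of the 995 genes paired in that way were called upregulated with NaB, so that its call is one that most of them share. Eomes passed the filter through its treated libraries, since no control held more than 7 reads. When the untreated cultures of the 2 projects were compared, Nes and Neurog2 were not called (limma), while 1.55% of all genes were. The differences, NaB controls minus TSA controls, were 0.27 for Nes (adjusted p = 0.547) and -0.56 for Neurog2 (adjusted p = 0.414). With 1 library left out they ran from 0.088 to 0.46 for Nes and from -0.91 to -0.37 for Neurog2. That of Eomes was 0.11 and is given without a test, because of the filter. It turned direction with 1 library left out, running from -0.070 to 0.45. In the order of the group means, control and treated groups were separated without overlap for Neurog2, Eomes and Neurog1, and neighbouring groups overlapped at every step for Nes and Hes2. The pairing had required a rise of all 5 with TSA and of Eomes and Neurog1 with NaB. No share of all genes was taken for this order, and nothing is read from it.

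The neighbours of these genes in the same pathways could be followed only in part, since of 148 genes on the fixed lists of pathways and cell types 20 could be paired, each through a rise with at least 1 of the drugs. The counts below therefore say nothing about genes that fell. Of 11 Notch ligands and receptors, Jag1 was paired. This ligand of the Notch receptors gave 100.2, 168 and 98.1 normalized counts in the controls for TSA, 512, 526 and 677 with TSA, and 638 and 821 with NaB against 119 and 196 in its controls. Its log2 fold changes were 2.25 and 2.24, given without a test, since both comparisons had served in its pairing. None of the 18 Notch signal modulators and none of the 4 Id genes, which encode inhibitors of bHLH factors, was paired.

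Of 10 Hes and Hey repressors, Hes2 and Helt were paired, and neither passed the filter. Helt, a Hes-related repressor of the developing midbrain, had 0 reads in the 3 controls for TSA, 7, 5 and 2 with TSA, and 6 and 5 with NaB against 1 and 2 in its controls. Its NaB change was not used in the pairing and did not pass the test without a filter (limma, adjusted p = 0.0588), although the NaB libraries lay above their controls. It passed in 5 of 19 alternatives, with adjusted p from 0.00824 (5 controls as 1 group) to 0.0476 (library totals), and the adjusted p over all 19 reached 0.385.

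Of 13 proneural bHLH factors, 4 were paired and 3 tested, of which 2 were past the thresholds with TSA and 3 with NaB, beside 22.5% and 21.2% of all genes tested. Nothing is read from these counts, since both TSA calls and the NaB calls of Atoh1 and Nhlh1 lay in comparisons used for the pairing. Atoh1, which specifies cerebellar granule neurons and hair cells, had 0, 2 and 0 reads in the controls for TSA and 69, 27 and 57 with TSA, and 39 and 49 with NaB against 0 and 0 in its controls. Nhlh1, a bHLH gene of newly formed neurons, was paired through NaB alone. Its values were 11.6, 15.5 and 16.0 normalized counts in the controls for TSA and 37.5, 19.0 and 21.4 with TSA. The groups did not overlap, yet the log2 fold change of 0.76 did not pass the test (limma, adjusted p = 0.0801), while 50.7% of the 75 tested genes paired through NaB alone were called upregulated with TSA. It passed with library totals (0.94, adjusted p = 0.0363) and with the 5 controls as 1 group (1.15, adjusted p = 0.0220), and the value was 0.47 without the first TSA library (adjusted p = 0.294) and 0.63 without the first TSA control (adjusted p = 0.205). With NaB it gave 48.2 and 25.1 against 7.25 and 6.26, a log2 fold change of 2.21.

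Of 23 neural stem and radial glia factors, 4 were paired and tested. All 4 were past the thresholds with TSA, the comparison that had paired them, beside 22.5% of all genes tested. With NaB, which had not, 2 were upregulated and 2 did not pass the test, beside 21.2% of all genes tested and 78.3% of the 995 genes paired through TSA alone, as these 4 were. The median log2 fold change with NaB was 0.92 for the 4 and 1.31 for the 995. Prom1, the gene of the stem cell surface protein CD133, gave 361 and 307 normalized counts with NaB against 167 and 135 in the controls (log2 fold change 1.15, limma, adjusted p = 0.00928). This call was lost without the second NaB control (adjusted p = 0.0580) and without the first NaB library (0.0604). Fut4, which makes the stem cell carbohydrate epitope SSEA-1, gave 69.0 and 68.5 against 31.1 and 31.3 (1.11, adjusted p = 0.00241). Hopx, a gene of outer radial glia, gave 452 and 474 against 291 and 265 and, like Nes, did not pass the test (0.73, adjusted p = 0.154). Its adjusted p was 0.00436 with the replicate block (limma), 0.00485 in the libraries of the comparison alone and 0.0201 with the 5 controls as 1 group, where the value was 1.31. It was 0.0282 without the third TSA control, which changed the shared estimate of the spread and not the value.

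Of 14 intermediate progenitor and early neuron genes, Eomes, Sstr2 and Nhlh1 were paired and tested, with 2 past the thresholds for TSA and 3 for NaB, beside 22.5% and 21.2% of all genes tested. Of these calls, that of Sstr2 with NaB alone lay in a comparison not used for the pairing, and 78.3% of the 995 genes paired through TSA alone were called upregulated there. Sstr2, a somatostatin receptor of migrating neurons, was paired through TSA alone and rose with NaB from 149 and 229 normalized counts to 502 and 437 (log2 fold change 1.34, limma, adjusted p = 9.40e-04). Of 12 proliferation genes, Ccnd2 was paired, the gene of cyclin D2, which is kept in dividing cortical progenitors. Like Sstr2 it was paired through TSA alone, where that share also applies, and it rose with NaB from 1833 and 2128 to 4235 and 4875 (1.20, adjusted p = 1.09e-04). The rest of this list could not be paired, so that Ccnd2 does not stand for proliferation genes. The study reports that genes of cell division and DNA replication, several cyclins among them, fell with both drugs. It also reports fewer cells labelled for newly made DNA with TSA.

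**Figure D4:**
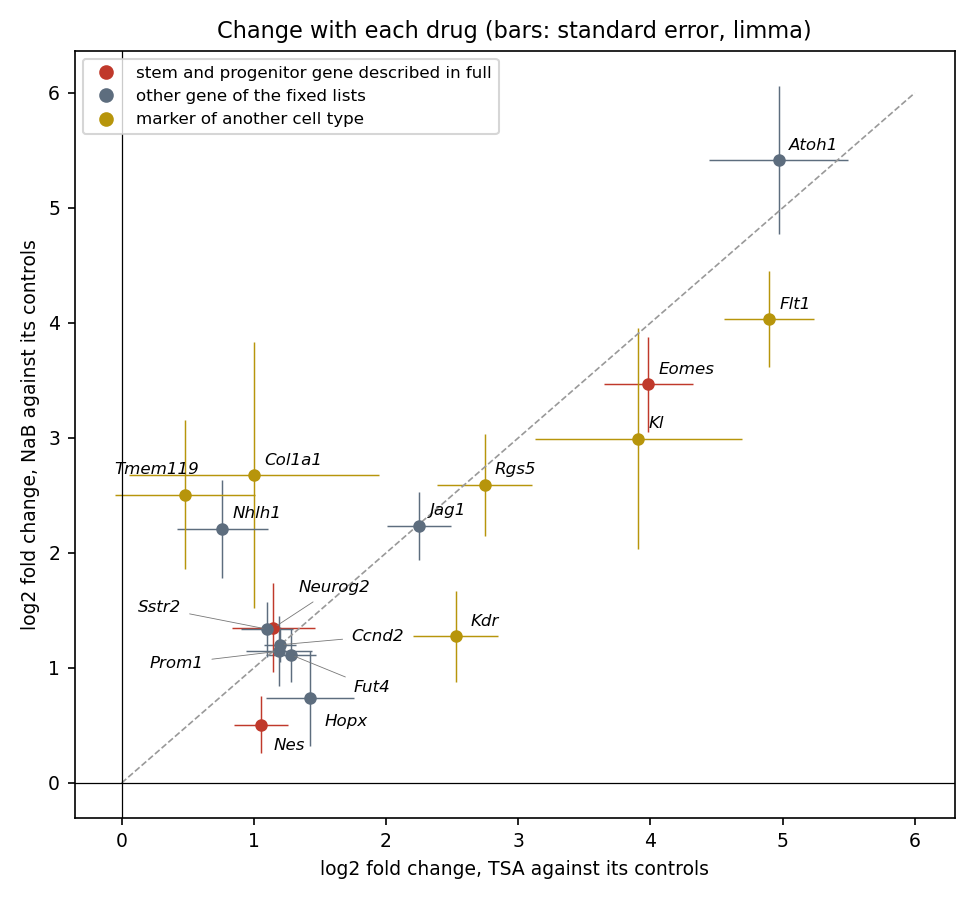
Log2 fold change with NaB (vertical) against that with TSA (horizontal) for the tested genes of the lists, with bars for the standard error (limma) and a dashed line of equal change. Red points are Nes, Neurog2 and Eomes, grey points other genes of the pathway lists and yellow points markers of other cell types; every gene was paired through a rise in at least 1 list, so that a positive value on at least 1 axis was fixed by the pairing.

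Markers of other cells that such cultures can hold were also read. Of 7 endothelial and pericyte markers, Kdr and Flt1, the receptors of vascular endothelial growth factor, and Rgs5, a pericyte gene, were paired, and Pecam1, Cldn5, Cdh5 and Pdgfrb were not analysed here. Their summed level was 27.4, 17.5 and 27.7 normalized counts in the controls for TSA, 240.1, 192 and 273 with TSA, and 201 and 199.6 with NaB against 27.95 and 53.2 in its controls. Nes, which growing vessels also make, was higher in each treated culture than in the control of its plate, as this sum was. The pairing had required a rise of Nes, Kdr, Flt1 and Rgs5 with TSA, and of Flt1 and Rgs5 with NaB. Nothing is read from this shared direction, which 35.2% of all genes tested showed in all 5 pairs. The part of such cells in the change of Nes was not tested.

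Of 5 fibroblast markers, Col1a1 was paired, through NaB alone, and it separated the control cultures. It gave 909, 47.4 and 1379 normalized counts in the controls for TSA, 798, 696 and 879 with TSA, and 876 and 961 with NaB against 149 and 137 in its controls. The second control for TSA thus held far less Col1a1 than the other two, and in this library Nes was the highest of the 3. Without it, the log2 fold change with TSA was 1.19 for Nes, 1.30 for Neurog2 and 3.80 for Eomes, and that of Col1a1 turned from 1.00 (limma, adjusted p = 0.381) to -0.51, a called decrease (adjusted p = 0.0283). With all libraries, the ratio of means of Col1a1 with TSA was 1.02, and its log2 fold change was 0.023 by DESeq2 and 0.010 by edgeR. Of 6 microglia markers, Tmem119 was paired, with 5.63, 4.52 and 1.94 normalized counts with TSA against 2.11, 1.03 and 5.33 in the controls, and 15.1 and 11.6 with NaB against 1.04 and 2.09. Of 5 ependymal and choroid plexus markers, Kl was paired, with 30.9, 25.3 and 33.0 with TSA against 0, 0 and 7.47 in the controls, and 37.8 and 23.1 with NaB against 6.21 and 1.04. The part of these cells in the changes of the progenitor genes was not tested.

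Among 1827 tested genes with a symbol, those whose log2 values ran most like each member over the 10 libraries were named as a description, since the points share the 2 treatments and nearly all paired genes rose. For Nes these were Slc2a9 (Pearson r = 0.952), a urate transporter, and Timp1 (0.943), an inhibitor of matrix metalloproteinases. For Eomes they were Isl2 (0.996), a LIM homeobox factor of motor neurons, and Bbs9 (0.992), a part of the BBSome of cilia. For Neurog2 they were Dock8 (0.968), a guanine nucleotide exchange factor, and Hmcn1 (0.964), an extracellular matrix protein. Between the members themselves r was 0.785 for Eomes and Nes, 0.847 for Eomes and Neurog2, and 0.699 for Nes and Neurog2, the same 10 libraries being used throughout.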

How the data were processed

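RNA sequencing measured 10 bulk libraries in 4 groups of cultures. Per the submitters' processing notes, the authors used STAR 2.7.9a, featureCounts 2.0.1 and DESeq2 1.29 on the rat build Rnor_6.0. The strand setting of the counting is not given in the sources used here, so that genes that overlap others are uncertain to that extent. The signal that the authors deposited is the normalized count of each gene, its reads divided by 1 size factor per library. Division by the value of 1 read gave whole reads for 100% of the values (relative tolerance 1e-06), and the depth was 26070908 to 27649249 reads per library.

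Symbols came from the readable rows of the study's supplementary gene lists, which gave 1909 symbols for identifiers. The comparison columns of these lists hold the authors' fold changes and p-values and were not used. Members and gene lists were chosen with earlier results of these data known. The genes named were all members, the paired genes of each fixed list, and for each tested member the 2 genes with the highest Pearson r.

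The main test was limma 3.58.1 (R 4.3.3) on log2(normalized count + 1) with an empirical Bayes trend, 2-sided, over the 15717 of 24293 genes with a read that passed filterByExpr (minimum count 10), with all 10 libraries in 4 groups. A fold change on this scale understates that of low genes. Calls needed a p of at most 0.05 after Benjamini-Hochberg adjustment and a log2 fold change of 0.5 or more in size. The scripts were tested on simulated data with 200 changed genes. The depth allows a floor of 3 reads, 0.109 to 0.115 CPM per library. Within a group, libraries varied beyond counting noise (chi-square per degree of freedom 8.63 to 33.7 over 8 pairs), and p-values measure the spread between these libraries, which may be partly technical.

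Plate pairs came from the replicate numbers of the titles for TSA and from consecutive library names for NaB, and the study states that a pair shared a plate. Deviations from the group means correlated within the TSA pairs (r = 0.284, 0.392 and 0.314) and within the NaB pairs (0.342, a single value, as the 2 pairs mirror each other). Alternatives were DESeq2 1.42.0 and edgeR 4.0.16 on the recovered reads, TMM factors or library totals in limma, pseudocounts of 0.5 and 5, no filter, a minimum mean of 50, the libraries of a comparison alone, 5 controls as 1 group, the replicate block, and each library left out in turn. For Neurog1, Hes2 and Helt, which lay below the filter, each alternative was run without it, a choice made after seeing the data. Promoter sequences are from RefSeq (GRCr8), in which all 5 paired members were matched by symbol.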

Additional observations from a re-analysis of the deposited data

How the results depend on the processing

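The counts of called genes with TSA (6644, from 5202 to 6958) and with NaB (6521, from 5337 to 7025) stayed within 1.5 times under every alternative. The count for the difference between the drugs was 47, against 71 with library totals, 255 with DESeq2, 422 with the 5 controls as 1 group, 404 with the replicate block, 31 without a filter, and 1 to 45 with each library left out. That between the controls of the 2 projects was 243, against 580 with DESeq2, 780 with the replicate block, 6 in the libraries of the comparison alone, 104 without a filter, and 23 to 461 with each library left out. No plate held controls of both projects, so that a fit with the plate as a block cannot compare the means of these controls. The median log2 difference of all genes was -0.015 in that fit, against -0.020 in the main fit. Its 780 genes are therefore not a count for the same comparison, and nothing is read from them. Members called with TSA numbered 3, against 5 without a filter and 1 under a mean of at least 50, where Neurog2 and Eomes were not tested. Members called with NaB numbered 2, against 3 with the 5 controls as 1 group, the replicate block or no filter, 0 under a mean of at least 50, and 1 to 2 with each library left out. Pairing had used the TSA rise of all 5 and the NaB rise of Eomes and Neurog1, so that nothing is read from these counts. Over all genes, 22.5% were called upregulated with TSA and 21.2% with NaB, against 15.6% and 14.9% without a filter. With NaB it was 22.7% under the replicate block and 3604 of 15717 genes with the 5 controls as 1 group. Under a mean of at least 50, it was 2403 of 12746 with TSA and 2382 with NaB. Direction turned in 3 results, none of them called with all libraries, and 1 turned value was called (Col1a1 without the second TSA control). The control difference of Eomes (0.11) ran from -0.070 to 0.45 with each library left out. The NaB minus TSA difference of Neurog2 (0.20) was -0.36 with the 5 controls as 1 group and ran from -0.019 to 0.54 with each library left out. Col1a1 with TSA (1.00) ran from -0.51 to 1.91. The causes were not tested. Library totals moved the median log2 fold change of all genes from 0.022 to 0.20 with TSA and from 0.020 to 0.13 with NaB, and the split of calls from 3540 up and 3104 down to 4675 and 2166 (TSA) and from 3337 and 3184 to 3923 and 2576 (NaB). The replicate block turned the calls of Nes and Hopx with NaB, as given above. The NaB change of Col1a1 had served in its pairing and is given without a test. Its log2 fold change was 2.68 and ran from 1.80 to 2.78 over the alternatives.

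Depth limits Neurog1, Hes2, Helt and Atoh1, whose controls held 0 to 2 reads, and the folds of Eomes, whose controls held 3 to 7. The 2 libraries per NaB group limit every NaB call. Genes without a paired symbol, which include all that fell with both drugs, were not analysed here, so that no count above describes a whole pathway.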
